A study of Mus musculus with 4 samples.

Results

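The last step of a reprogramming time course was described across all genes, from day 6 to day 8 of OSKM treatment, with 1 array at each time and 2 of the series' 4 arrays in all. OSKM stands for Oct4, Sox2, Klf4 and c-Myc, delivered by Sendai virus, an RNA virus that does not enter the genome. The cells were cardiac mesenchymal progenitors (CMPs), Sca-1-positive cells of the heart of adult C57BL/6 mice. The study followed whether such cells turn into adipocytes without an adipogenic cocktail. The untreated CMP control (day 0) and the OSKM day 4 array give the earlier levels of each gene. The labels give the same culture for all samples, collagen I-coated dishes in DMEM/F12 with 10% FBS and 40 ng/ml bFGF, while the study's methods place transduced cells in a reprogramming medium without leukemia inhibitory factor. No array of untreated cells at day 6 or day 8 was analysed here, so time in culture and time since transduction cannot be told apart, and the labels do not say what share of the cells on either day held lipid.

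Each of the 4 arrays was a single-colour Agilent array hybridised with RNA from 1 sample (250 ng labelled), so no test between days was possible, and all differences carry only a technical error. A level is the log2 of a probe's background-subtracted signal minus the array's 75th percentile of that value, so that 0 is the level at which a probe outshines 75% of the probes of its array. Levels of different genes come from different probes and are not compared. A probe was kept where the scanner software called it well above background on the day 6 or the day 8 array, which left 33863 of 55681 probes (60.8%) and 16095 named genes, of which 14975 were well above background on both arrays. Errors after ± are 1 SD of the difference by the scanner software's error model, with a median over genes of 0.20 on the log2 scale. They treat the spots and probes of a gene as independent, so they shrink with the number of spots and probes. A smaller error of this kind does not make a difference between days more certain. Between repeated spots of 1 probe the SD was 0.065 at day 6 and 0.066 at day 8, and 8 spiked-in E1A transcripts differed between the arrays by -0.02 in the median (range -0.07 to 0.06). The 8 controls named ERCC on the array differed by 0.26 in the median (range -0.11 to 0.49).

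A white fat cell is made when a mesenchymal progenitor leaves the cell cycle and the regulators Pparg and Cebpa switch on the genes of lipid storage. In late differentiation the cell fills its lipid droplet by taking up fatty acids and making its own, gains insulin-responsive glucose transport, and secretes adipokines such as adiponectin, adipsin and retinol binding protein. Progenitors in division depend on histone supply in S phase and on mitotic regulators in G2 and M phase, whose genes are silenced together as cells stop dividing.

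From day 6 to day 8, 371 of 16095 genes were at least 2-fold higher (2.31%) and 122 were at least 2-fold lower (0.758%). Among the 14975 genes well above background on both arrays, 128 were at least 2-fold higher (0.855%) and 42 at least 2-fold lower (0.28%). All of these 128 and 42 differences exceeded 2 times their technical error. The same held for 269 of the 371 higher genes and 101 of the 122 lower genes. The median error of genes on both arrays was 0.20, so for the 128 and 42 genes the 2-fold cut largely set this in advance. The median difference over all genes was -0.01 on the log2 scale, 88.0% of genes differed by less than 0.5, and the levels of the 2 arrays correlated across genes with r = 0.995. The step was the smallest of the 3 by its count. From the control to day 4, 1912 of 16216 genes were at least 2-fold higher (11.8%) and 1578 lower (9.73%), and from day 4 to day 6, 415 of 15959 were higher (2.6%) and 377 lower (2.36%). Neighbouring steps share an array, and each count stands for its own step. Higher levels made up 75.3% of the differences past 2-fold from day 6 to day 8. When the arrays were scaled by their median the counts became 282 higher and 185 lower (60.4% higher), and after quantile normalization 285 and 169 (62.8%). Counted as probes, 1127 of 33863 were higher (3.33%) and 353 lower (1.04%). Of genes over the array's 75th percentile on both days, 8030 in all, 31 were at least 2-fold higher and 9 at least 2-fold lower.

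**Figure D1:**
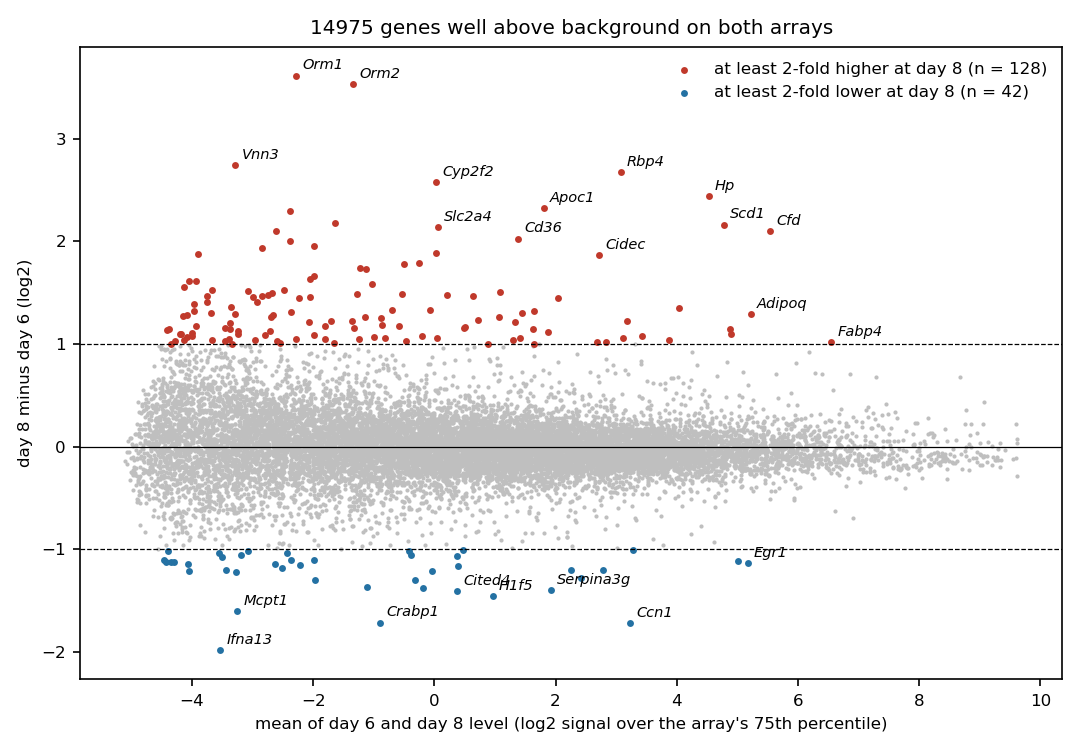
Day 8 minus day 6 difference (log2, vertical axis) against the mean of both levels (horizontal axis) for the 14975 genes well above background on both arrays. Red points are the 128 genes at least 2-fold higher and blue points the 42 at least 2-fold lower, dashed lines mark 2-fold, and the named secreted and lipid genes Rbp4, Hp, Scd1, Cfd, Adipoq and Fabp4 lie among the bright red points.

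The regulatory stretch before the start of several genes is shown first, because members of some gene groups described below share letters there. The sequences are from RefSeq (GRCm38.p6), the 250 bases before a start, 5′ to 3′ on the gene's strand. For 3 G2 and M phase genes, the anaphase activator Cdc20 (chr4:118437344-118437593, minus strand), the mitotic cyclin Ccnb2 (chr9:70421555-70421804, minus strand) and the ubiquitin conjugating enzyme Ube2c (chr2:164769679-164769928, plus strand), capitals mark the cell cycle homology region (CHR, TTTGAA) and the CCAAT box (CCAAT) on either strand.
Cdc20: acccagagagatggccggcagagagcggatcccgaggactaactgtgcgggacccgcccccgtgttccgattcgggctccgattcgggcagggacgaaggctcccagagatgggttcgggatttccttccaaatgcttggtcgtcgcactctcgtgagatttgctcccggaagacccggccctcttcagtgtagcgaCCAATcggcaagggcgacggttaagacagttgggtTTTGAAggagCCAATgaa
Ccnb2: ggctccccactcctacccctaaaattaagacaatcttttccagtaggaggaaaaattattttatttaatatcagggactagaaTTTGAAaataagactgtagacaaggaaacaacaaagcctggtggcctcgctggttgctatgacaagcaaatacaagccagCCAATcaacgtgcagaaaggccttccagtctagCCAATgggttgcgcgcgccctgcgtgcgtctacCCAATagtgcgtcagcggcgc
Ube2c: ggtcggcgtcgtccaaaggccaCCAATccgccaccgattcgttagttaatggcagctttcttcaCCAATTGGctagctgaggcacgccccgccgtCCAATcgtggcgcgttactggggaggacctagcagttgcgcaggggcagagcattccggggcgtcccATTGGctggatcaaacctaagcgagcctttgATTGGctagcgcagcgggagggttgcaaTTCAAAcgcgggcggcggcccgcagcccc

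For the linker histone genes H1f5 (chr13:21780626-21780875) and H1f4 (chr13:23622559-23622808) and the histone H3 gene H3c11 (chr13:21783398-21783647), all on the minus strand of chromosome 13, capitals mark the TATA box (TATAAA) and the CCAAT box. In H1f5 and H1f4 the TATA letters lay close to the start, after a CCAAT box.
H1f5: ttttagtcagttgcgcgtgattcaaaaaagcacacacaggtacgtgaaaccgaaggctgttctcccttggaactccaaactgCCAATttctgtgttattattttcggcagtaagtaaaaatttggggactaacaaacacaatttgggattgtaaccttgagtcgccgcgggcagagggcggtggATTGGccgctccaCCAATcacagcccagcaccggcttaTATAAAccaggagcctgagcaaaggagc
H1f4: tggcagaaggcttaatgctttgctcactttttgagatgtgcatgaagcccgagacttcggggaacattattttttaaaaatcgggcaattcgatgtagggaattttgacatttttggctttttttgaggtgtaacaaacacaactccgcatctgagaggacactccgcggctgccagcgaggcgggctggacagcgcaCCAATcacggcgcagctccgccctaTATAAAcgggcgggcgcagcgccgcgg
H3c11: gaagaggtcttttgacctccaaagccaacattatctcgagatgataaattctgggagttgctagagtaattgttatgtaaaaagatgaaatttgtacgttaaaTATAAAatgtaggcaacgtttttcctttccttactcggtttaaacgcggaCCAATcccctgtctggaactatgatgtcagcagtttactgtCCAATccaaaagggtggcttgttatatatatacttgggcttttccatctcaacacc

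For Ccn1 (chr3:145649986-145650235, minus strand), which encodes a secreted matrix protein, and Zfp36 (chr7:28379229-28379478, minus strand), which encodes an mRNA decay factor, capitals mark the TATA box and the CArG box, the element that serum response factor reads. Ccn1 held a TATA box and no CArG box in this stretch, and Zfp36 held a CArG box. For Orm2 (chr4:63362199-63362448, plus strand), one of the genes that rose most, capitals mark a C/EBP site (TTGCGCAA or TTGCACAA) and a TATA box.
Ccn1: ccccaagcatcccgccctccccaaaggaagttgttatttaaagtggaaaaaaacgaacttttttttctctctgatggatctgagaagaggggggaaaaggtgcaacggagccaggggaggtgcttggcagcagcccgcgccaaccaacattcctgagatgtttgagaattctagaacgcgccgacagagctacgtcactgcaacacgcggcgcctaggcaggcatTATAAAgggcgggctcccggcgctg
Zfp36: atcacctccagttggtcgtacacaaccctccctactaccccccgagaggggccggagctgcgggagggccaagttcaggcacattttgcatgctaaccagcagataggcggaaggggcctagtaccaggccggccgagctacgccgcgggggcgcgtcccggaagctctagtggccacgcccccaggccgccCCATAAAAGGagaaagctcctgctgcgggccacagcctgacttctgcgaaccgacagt
Orm2: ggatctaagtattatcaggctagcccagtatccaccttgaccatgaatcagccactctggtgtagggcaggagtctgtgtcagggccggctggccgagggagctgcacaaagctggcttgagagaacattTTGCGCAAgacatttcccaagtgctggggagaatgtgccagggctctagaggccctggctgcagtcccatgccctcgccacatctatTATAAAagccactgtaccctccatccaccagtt

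Among the windows of 250 bases before to 50 after a start, 14787 belonged to 11743 of the 14975 genes measured on both arrays. The CHR letters stood in 34 of 52 windows of the G2 and M phase genes (65.4%) and in 12.5% of all windows, and the CCAAT box in 39 (75%) against 37.6% of all. In the S phase list, 23 of 33 windows held a CCAAT box (69.7%) and 7 the E2F site TTCCCGCC (21.2%), which 3.6% of all windows held. In the 38 windows of the replication histone genes, 33 held a CCAAT box (86.8%) and 23 a TATA box (60.5%), against 8.5% of all windows for the TATA box. The CArG box stood in 7 of 27 windows of immediate early genes (25.9%) and in 1.4% of all windows. These motif shares are those of groups set by hand or by gene name, not of the genes past 2-fold. They describe the letters of the windows, and a match is not a site that was shown to be bound.

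The windows of the genes at least 2-fold higher and of those at least 2-fold lower were both less rich in G and C than all windows, with a mean GC content of 53.8% and 54.1% against 59.7%. Of the 110 windows of the higher genes, 34 held a GC box (GGGCGG, 30.9%) against 57.8% of all, 22 the NF1 site TTGGCA (20.0%) against 12%, 17 a TATA box (15.5%) against 8.5%, and 4 a C/EBP site (3.6%) against 1.0%. The 35 windows of the lower genes held the NF1 site in 6 cases (17.1%) and a TATA box in 13 (37.1%). They held the CHR letters in 6 cases (17.1%), against 18.2% of the higher genes' windows and 12.5% of all. A CArG box stood in 0 of the 35. The PPAR/RXR motif AAAGGTCA stood in 2 of the 110 windows (1.8%) and in 1.1% of all, and the sterol element TCACCCCAC in 0 of the 110, where 0.5% of all windows held it.

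Among genes well above background on both arrays, the orosomucoid genes Orm1 and Orm2 had the largest rises. Orm1, which encodes the plasma carrier orosomucoid, had levels of -6.40 on the control array, -6.65 on day 4, -4.09 on day 6 and -0.48 on day 8, and was not well above background on the first 2 arrays. Its day 8 minus day 6 difference was 3.61 ± 0.28, or 12.2-fold. Orm2, its neighbour on chromosome 4, stood at -3.11 at day 6 and 0.42 at day 8, a difference of 3.53 ± 0.22 (11.5-fold), and was likewise not well above background before. The third gene of the cluster, Orm3, was well above background only at day 8 and was at least 6.36-fold higher. Such a bound sets the day 8 signal against the dimmest signal called well above background at day 6, or the gene's own signal where that was higher. The 3 Orm genes are near copies of each other, so how far each probe reads its own gene is uncertain.

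Haptoglobin (Hp), the hemoglobin scavenger that fat tissue also secretes, was at -2.56, -0.07, 3.31 and 5.75 on the 4 arrays in order of day, so that day 8 was 2.44 ± 0.20 above day 6. Retinol binding protein 4 (Rbp4), a carrier of vitamin A and an adipokine, was not well above background in the control and rose from -1.64 at day 4 to 1.74 at day 6 and 4.41 at day 8, a last step of 2.67 ± 0.20 (6.37-fold). Adipsin (Cfd), the complement protease made chiefly by fat cells, was at -3.30, 4.48 and 6.59 at days 4, 6 and 8, with a last step of 2.10 ± 0.20. For Rbp4, Hp and Cfd the highest of the 4 arrays was day 8 and the next was day 6. The probes lie at chr8:112099045-112099104 for Hp, chr19:38191120-38191179 for Rbp4 and chr10:79355302-79355361 for Cfd on mm9, the build of the array files.

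Of 24 measured genes on the list of adipokines and other secreted fat cell proteins, 11 were at least 2-fold higher and 0 at least 2-fold lower. The shares over all genes were 2.31% and 0.758%. With both arrays required, 10 of 22 were at least 2-fold higher. The list median was 0.31 against -0.01 over all genes. Adiponectin (Adipoq), the hormone that defines fat cells, was at -1.51, 4.57 and 5.86 at days 4, 6 and 8, a last difference of 1.29 ± 0.20, and was not well above background in the control. Resistin (Retn) went from 1.31 to 2.43 (1.12 ± 0.14), the adipogenin gene Adig from -0.10 to 1.36 (1.47 ± 0.15) and the chemerin gene Rarres2 from 2.89 to 3.96 (1.07 ± 0.20). Leptin (Lep) was well above background at day 8 and on no earlier array. The list was not uniform. Cxcl12, a chemokine of stromal cells, was lower at day 8 (-0.50 ± 0.14), and so were Lcn2 and Angptl4 (-0.39 each), while Apoe (0.19) and C3 (0.17) differed little. Apoc1, which encodes a lipoprotein component, was at -0.66, -1.59, 0.65 and 2.97 on the 4 arrays and rose by 2.32 ± 0.20, and its neighbour Apoc2 was 0.93 ± 0.24 higher.

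The list of complement and acute phase genes, which shares Orm1, Hp and Cfd with the secreted list, had 12 of 34 measured members at least 2-fold higher and 1 at least 2-fold lower (median 0.27), where 2.31% of all genes were higher and 0.758% lower. With both arrays required, 10 of 32 were at least 2-fold higher. Hemopexin (Hpx), which binds heme, was at -3.34, -2.93, -1.39 and 0.39 on the 4 arrays, a last step of 1.78 ± 0.21. The serum amyloid genes Saa3 (1.30 ± 0.20) and Saa1 (1.05 ± 0.20), the inter-alpha-trypsin inhibitor chain Itih4 (1.26 ± 0.16), the terminal complement component C6 (1.06 ± 0.21) and the serpin Serpina3c (1.96 ± 0.22) were higher. Serpina3g, another serpin of the same family, went the other way, from 2.62 at day 6 to 1.22 at day 8 (-1.39 ± 0.20), after a level of 4.93 at day 4. The early complement genes C1s1 (-0.11), C1ra (0.24) and C4b (-0.07) differed by little from day 6 to day 8.

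Among genes of glucose and fatty acid entry, the insulin-responsive transporter GLUT4 (Slc2a4) was at -3.60, -3.37, -1.01 and 1.12 on the 4 arrays, so that day 8 was 4.39-fold above day 6 (2.13 ± 0.06). Cd36, the fatty acid translocase, was not well above background in the control and was at -2.40, 0.37 and 2.39 at days 4, 6 and 8 (2.02 ± 0.20). Lipoprotein lipase (Lpl), which frees fatty acids from lipoproteins, rose from 4.35 to 5.45 (1.10 ± 0.14), and the fatty acid carrier Fabp4 from 6.04 to 7.06 (1.02 ± 0.20). The uptake list as a whole had 3 of 21 members at least 2-fold higher, where 2.31% of all genes were. Its median was 0.10, which became -0.04 when arrays were scaled by their median. Fabp3, the carrier of muscle, was lower (-0.46 ± 0.14). On the insulin response list 3 of 25 were at least 2-fold higher, against the same 2.31%. Trarg1, a regulator of GLUT4 traffic, rose by 1.15 ± 0.21, and the glycogen synthase gene Gys2 was well above background only at day 8, at least 3.64-fold higher. The receptor gene Insr (0.26) and the kinases Akt1 (-0.19) and Akt2 (0.06) differed by less than 1.5-fold.

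The genes that make fatty acids were mostly higher at day 8. Scd1, the desaturase that makes oleate, was at 2.94, 2.44, 3.69 and 5.86 on the 4 arrays, a last difference of 2.16 ± 0.20 (4.48-fold). Fatty acid synthase (Fasn) was at -0.59, -0.87, 0.43 and 1.70 on the 4 arrays (1.27 ± 0.20), and Thrsp, a lipogenic regulator, went from 3.37 to 4.72 (1.35 ± 0.20). Acss2, which makes acetyl-CoA from acetate, rose by 1.23 ± 0.15. The acetyl-CoA carboxylase Acaca (0.65 ± 0.11), the malic enzyme Me1 (0.65 ± 0.12) and ATP citrate lyase Acly (0.34) were higher by less than 2-fold. In all, 20 of the 23 measured lipogenic genes were above 0, with 4 past 2-fold, 8 past 1.5-fold and a median of 0.29, where 6.06% of all genes were at least 1.5-fold higher and 3.21% at least 1.5-fold lower. For Scd1 and Fasn the day 4 level was the lowest of the 4 arrays.

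Triglyceride synthesis and breakdown both had more members above 0 than below. Over all genes, 2.31% were at least 2-fold higher, against which the counts here are set. Of 17 synthesis genes 16 were above 0 (median 0.43) and 3 were at least 2-fold higher: Mogat1, a monoacylglycerol acyltransferase (1.31 ± 0.22), Pck1, the enzyme of glyceroneogenesis (1.17 ± 0.20), and Gpat3, the acyltransferase of the first step (1.02 ± 0.20). Pck1 was not well above background in the control or at day 4, and was at -1.17 at day 6 and 0.01 at day 8. Dgat2, which makes the final bond, was at 0.57, 2.06, 6.51 and 7.22 on the 4 arrays, with most of its rise before day 6. Of 18 lipolysis genes 17 were above 0 (median 0.58) and 4 were at least 2-fold higher. Pnpla3 rose by 1.94 ± 0.19, the beta-3 adrenergic receptor Adrb3 by 1.23 ± 0.17 and Fabp4 as given above. Adora1, the adenosine receptor, was the fourth and was well above background only at day 8. Hormone sensitive lipase (Lipe, 0.85 ± 0.21) and adipose triglyceride lipase (Pnpla2, 0.62 ± 0.20) were higher by less than 2-fold. The lipid droplet list had 2 of 22 members at least 2-fold higher (median 0.08). They were Cidec, the droplet fusion protein, from 1.79 to 3.65 (1.87 ± 0.14), and Mogat1, and the coat protein Plin1 was at 3.50 and 4.12 (0.62 ± 0.20). Cidea, a relative of Cidec known from brown fat, was lower (-0.77 ± 0.21).

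The 7 lists of lipid, secretion and insulin genes held 141 measured genes together, of which 27 were at least 2-fold higher (19.1%) and 0 at least 2-fold lower, with a median of 0.19, where the shares over all genes were 2.31% and 0.758%. With both arrays required, 24 of these were among the 128 genes at least 2-fold higher (18.8%), and the lists held 133 of the 14975 genes. The lists were chosen with earlier results of these data known, so these shares are a description only. Of the transcription factors of adipogenesis, 23 were measured. Of these, 0 were past 2-fold in either direction, 1 was past 1.5-fold, and the median was 0.04. Pparg was at 0.98, 4.63, 4.83 and 4.82 on the 4 arrays (day 8 minus day 6 of -0.02 ± 0.06), and Cebpa at -0.88, 1.43, 2.53 and 2.28 (-0.25 ± 0.20). Cebpb (-0.03 ± 0.20) and Cebpd (-0.33 ± 0.20), factors of the early wave, were also within 2 errors of 0. The highest value on the list was that of the lipogenic factor Srebf1, at 0.43 and 1.02 on the 2 arrays (0.59 ± 0.20), followed by Mlxipl, the carbohydrate-responsive factor (0.49 ± 0.14), and Nr1h3, the sterol receptor LXR alpha (0.45 ± 0.14). Creb1 was next (0.42 ± 0.18).

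**Figure D2:**
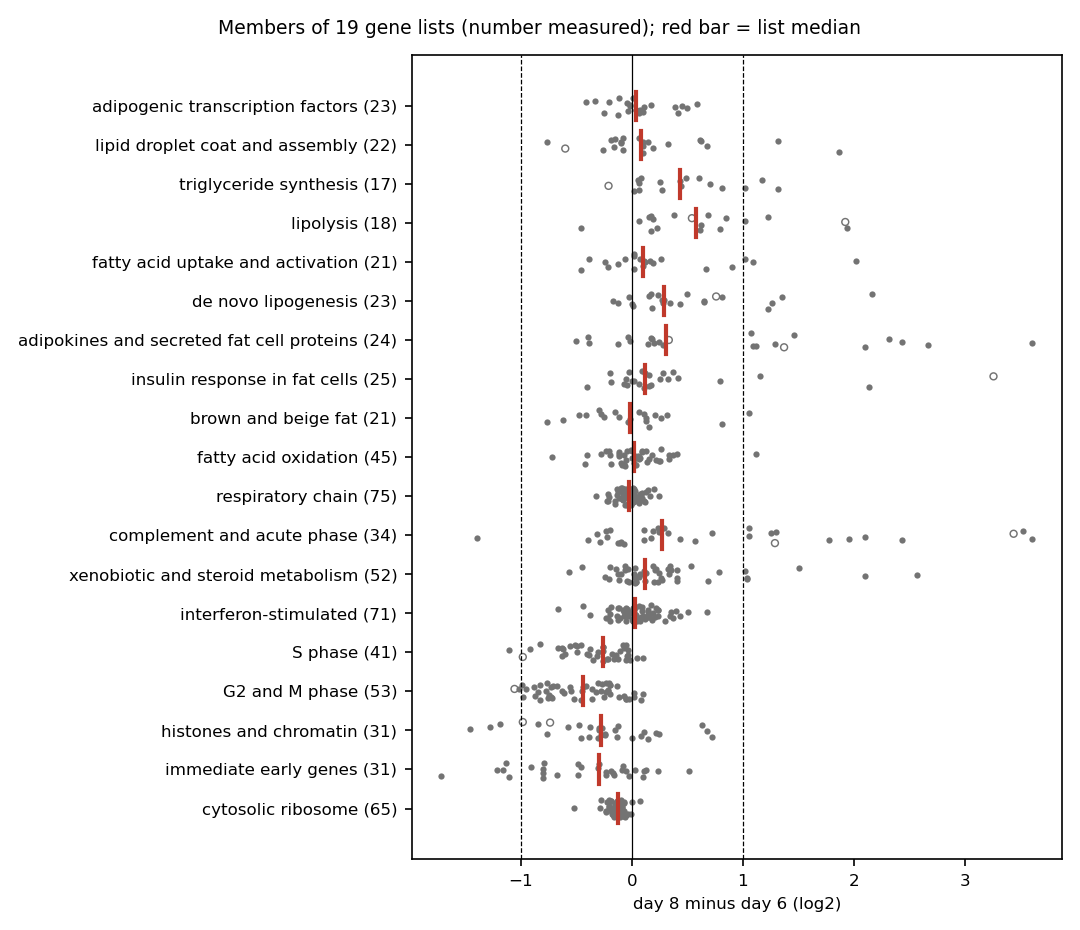
Day 8 minus day 6 difference (log2, horizontal axis) of each measured member of 19 gene lists, with the number measured after each name. Filled points were well above background on both arrays, open points on 1 of them or with some probes only, red bars are list medians and dashed lines mark 2-fold. The secreted and acute phase lists have the longest right tails, while the S phase and the G2 and M phase medians stand at -0.26 and -0.44.

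Genes of brown fat and of fat burning had list medians near 0. Over all genes, 2.31% were at least 2-fold higher, 6.06% at least 1.5-fold higher and 3.21% at least 1.5-fold lower. The brown and beige list had a median of -0.01, with 1 of 21 members at least 2-fold higher, the cytochrome oxidase subunit Cox8b (2.59 to 3.65, 1.06 ± 0.20). Dio2, the deiodinase that activates thyroid hormone, was 0.81 ± 0.20 higher, while Cidea (-0.77 ± 0.21) and Cited1 (-0.62 ± 0.21) were lower. Of the 21, 2 were at least 1.5-fold higher and 2 at least 1.5-fold lower. Ppargc1a, the coactivator of mitochondrial genes (-0.28 ± 0.21), and Prdm16, a brown fat regulator (-0.12 ± 0.20), were within 2 errors of 0. Fatty acid oxidation had a median of 0.02 over 45 genes, with only the peroxisomal oxidase Acox2 past 2-fold (1.12 ± 0.23). The respiratory chain had 0 of 75 genes past 1.5-fold, within a range of -0.32 to 0.24, and the citric acid cycle and branched chain amino acid list had a median of 0.00 with the pyruvate carboxylase Pcx highest (0.83 ± 0.20). Cholesterol synthesis and uptake had a median of 0.07, and Abcg1, a sterol exporter, was its only member past 2-fold (1.05 ± 0.21).

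Cell division genes were lower at day 8 by small and shared amounts. In the G2 and M phase list 49 of 53 measured genes were below 0, and the median was -0.44. Of the 53, 21 were at least 1.5-fold lower (3.21% of all genes) and 2 at least 2-fold lower (0.758% of all genes). Cdc20 was at 5.69, 4.45, 3.50 and 2.51 on the 4 arrays, a last step of -0.99 ± 0.20. Cdca3, a trigger of mitotic entry, was at 4.06, 2.74, 1.77 and 0.79 (-0.98 ± 0.20), the kinesin Kif2c went from -2.27 to -3.23 (-0.96 ± 0.16) and Pimreg, a mitotic regulator, from 0.09 to -0.92 (-1.02 ± 0.21). For Cdc20, Cdca3, Kif2c and Pimreg the control was the highest array and day 8 the lowest. The median of the list was -1.02 from the control to day 4, -0.44 from day 4 to day 6 and -0.44 from day 6 to day 8. Fewer dividing cells and less RNA of these genes per cell cannot be told apart in such samples, and the same holds for fat cells and their genes.

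In the S phase list 39 of 41 genes were below 0 (median -0.26), with 9 at least 1.5-fold lower and 0 higher. Dscc1, which helps join sister chromatids, was at 0.02, -1.10, -1.81 and -2.92 on the 4 arrays (-1.11 ± 0.22), and the histone chaperone Chaf1b at 3.72, 2.60, 1.90 and 0.98 (-0.92 ± 0.14). Mcm5, a subunit of the replicative helicase, went from 1.46 to 0.63 (-0.82 ± 0.20), and Gmnn, the licensing inhibitor, from -1.08 to -1.74 (-0.67 ± 0.21). Over the S and G2/M lists together 88 of 94 genes were below 0, and 30 (31.9%) were at least 1.5-fold lower against 3.21% of all genes. Cell cycle brakes did not rise as a group (median 0.07, 0 of 30 past 1.5-fold higher). Gadd45g was 0.45 ± 0.20 and Cdkn1a, the p53-induced inhibitor p21, 0.26 ± 0.10 higher, and Cdkn1c, the inhibitor p57, was lower, from 3.78 to 2.77 (-1.01 ± 0.20), after a level of -1.91 in the control.

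Histone genes were divided. Of 42 replication histone genes measured, 10 were at least 1.5-fold lower and 10 at least 1.5-fold higher, where 3.21% and 6.06% of all genes were. Of the 42, 27 were below 0, with a median of -0.26 and a range of -1.46 to 1.17. The linker histone H1f5 was at 3.52, 2.54, 1.69 and 0.24 on the 4 arrays (-1.46 ± 0.20) and H1f4 at 4.16, 3.22, 3.06 and 1.78 (-1.28 ± 0.20). H1f1 (-1.19 ± 0.22), H3c11 (-1.30 ± 0.21) and H2bc18 (-1.30 ± 0.20) were lower too. H2bc4 (0.72 ± 0.20), H2ac6 (0.68 ± 0.24) and H2ac18, from 4.30 to 5.44 (1.15 ± 0.20), were higher. Many of these genes are near copies of each other, and which copy a probe reads is uncertain. Other chromatin genes of dividing cells were lower, among them the methylation reader Uhrf1 (-0.98 ± 0.27, well above background at day 8 with only some of its probes) and Hmgb2 (-0.76).

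**Figure D3:**
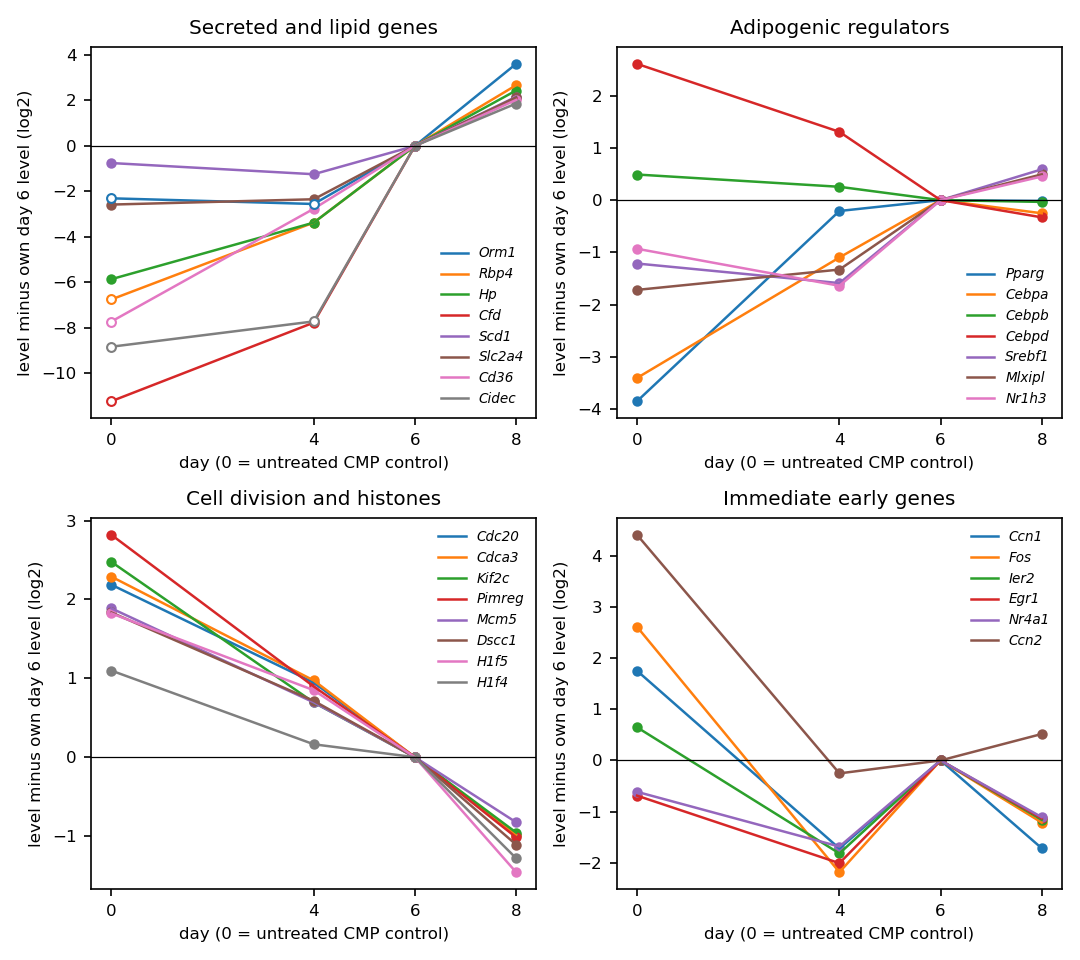
Levels of named genes on the 4 arrays (day 0 is the untreated CMP control), each minus the gene's own day 6 level (log2), in 4 groups, with open points where not all probes were well above background. Secreted and lipid genes end highest at day 8, Pparg and Cebpb are flat from day 6 to day 8, the cell division genes and histones step down on each array, and 5 of the 6 immediate early genes shown are lower at day 8 than at day 6 while Ccn2 is higher.

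Immediate early genes, which cells switch on within minutes of a growth or stress signal, were lower at day 8. Of 31 measured, 25 were below 0, 11 were at least 1.5-fold lower and 5 at least 2-fold lower (median -0.30). The shares over all genes were 3.21% and 0.758%. Ccn1 was at 5.84, 2.36, 4.08 and 2.37 on the 4 arrays, a last difference of -1.72 ± 0.20. The transcription factor Fos was at 3.17, -1.62, 0.56 and -0.65 on the 4 arrays (-1.21 ± 0.07), Egr1, a zinc finger factor, at 5.05, 3.73, 5.74 and 4.61 (-1.13 ± 0.20), and Ier2 at 1.62, -0.84, 0.97 and -0.19 (-1.16 ± 0.20). The orphan receptor Nr4a1 was at 4.94, 3.87, 5.56 and 4.45 (-1.11 ± 0.20). In all 5 genes day 6 lay above day 4 and above day 8, and in Egr1 and Nr4a1 day 6 was the highest of the 4 arrays. The list's median was 0.35 from day 4 to day 6 and -0.30 from day 6 to day 8, and both values use the same day 6 array. Dusp1 (-0.91 ± 0.20), Zfp36 (-0.80 ± 0.21), Junb (-0.80 ± 0.21) and Klf2 (-0.80 ± 0.20) were lower as well, whereas Jun (-0.16 ± 0.20), Jund (0.11) and Atf3 (0.24) were not past 1.5-fold. Ccn2, a relative of Ccn1 with a control level of 8.56, was higher, from 4.15 to 4.67 (0.52 ± 0.20). Id1, a target of BMP signals, was at 5.08 and 4.14 (-0.93 ± 0.20).

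The antiviral program that had risen earlier was level by its median between the last arrays. The median of 71 interferon-stimulated genes was 0.02 from day 6 to day 8, where it was 1.24 from the control to day 4. Of the 71, 0 were past 2-fold, a count near the shares over all genes (2.31% higher and 0.758% lower). Ifi27l2a (0.68 ± 0.20) and Oasl1 (0.51 ± 0.20) were the highest and Ifitm1 (-0.66 ± 0.16) the lowest. ISRE letters (GAAANNGAA) stood in 29 of the 66 windows of this list (43.9%) and in 7.1% of all windows. The interferon beta gene Ifnb1 went from 1.01 to 1.61 (0.60 ± 0.20), while the probe for Ifna13, one of a family of near copies, gave the largest fall among genes well above background on both arrays, from -2.54 at day 6 to -4.53 at day 8 (-1.98 ± 0.31). Chemokines and cytokines had a median of 0.17 with 4 of 34 members at least 1.5-fold higher, against 6.06% of all genes, and the median was 0.03 with the array median as scale. Among them, Ccl5 was at 0.08, 7.24, 8.33 and 9.01 on the 4 arrays (0.68 ± 0.20) and Il33, an alarmin, went from 0.69 to 1.49 (0.80 ± 0.20).

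Genes of xenobiotic and steroid metabolism had 6 of 52 members at least 2-fold higher and 0 at least 2-fold lower, against 2.31% and 0.758% of all genes. The list median of 0.12 was -0.013 with the array median as scale. Cyp2f2, a cytochrome P450, was at -5.91, -4.56, -1.26 and 1.32 on the 4 arrays and was not well above background in the control (2.57 ± 0.21). Cyp2e1 rose from -3.66 to -1.56 (2.10 ± 0.18) and the flavin monooxygenase Fmo2 from 0.33 to 1.84 (2.83-fold). The glutathione transferases Gsta1 (1.04 ± 0.20), Gsta2 (1.02 ± 0.20) and Gsta3 (1.03 ± 0.14) rose by nearly equal amounts. Gsta1 and Gsta2 lie in a run of neighbours on chromosome 9 with Gsta4 (0.69 ± 0.06) and Gm10639 (1.16 ± 0.16), all at least 1.5-fold higher, and as near copies they may share signal. Vnn3, a pantetheinase, had the third largest rise among genes well above background on both arrays (-4.66 to -1.92, 2.74 ± 0.33), and its relative Vnn1 did not differ beyond its error (0.10 ± 0.20).

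Matrix and contractile genes were mostly level. The collagen and fibrillar matrix list had a median of 0.07, with Prelp (0.85 ± 0.21) and the lysyl oxidase Loxl3 (0.61 ± 0.20) highest, and with the cartilage collagen Col2a1 lower, at 3.80, 2.93, 0.90 and -0.17 on the 4 arrays (-1.06 ± 0.20). The laminin receptor integrin Itga7 was at 1.96, 0.26, -0.08 and 1.08 (1.16 ± 0.20). The matrix protease inhibitor Timp4 went from -1.63 to -2.78 (-1.15 ± 0.22). In the smooth muscle and actin list, with a median of -0.08, Ankrd1 went from -0.43 to -1.04 (-0.62 ± 0.21) and Srf from 1.68 to 1.22 (-0.46 ± 0.14). Cytosolic ribosome genes were below 0 in 64 of 65 cases, where 8239 of all 16095 genes were. Their median was -0.13, or -0.05 after quantile normalization, and the brightest 10% of kept probes had a median of -0.08.

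Some genes that had moved past 2-fold by day 4 turned in the last step. Crabp1, a retinoic acid binding protein, was at -1.79, 1.45, -0.04 and -1.75 on the 4 arrays, so that at day 8 it was back near its control level (-1.71 ± 0.21 for the last step). Cited4, a transcriptional coactivator, was at -4.16, -2.58, 1.09 and -0.32 (-1.41 ± 0.20). In the other direction the synaptotagmin Syt10 was at 1.76, -0.57, -1.14 and 0.65 (1.79 ± 0.21), the prolyl hydroxylase Egln3 at -1.85, -3.26, -3.25 and -1.73 (1.52 ± 0.16), and Slc35a5, of a nucleotide sugar transporter family, at -2.82, -3.85, -3.42 and -1.92 (1.49 ± 0.17). Egln3 at day 8 was thus close to its control level. The step from the control to day 4 shares no array with the last step. Of 13950 genes well above background on all 4 arrays, 8.00% were at least 2-fold higher at day 4 than in the control and 7.73% lower. Of the 34 of them that were at least 2-fold lower from day 6 to day 8, 14 (41.2%) had been lower at day 4 and 5 (14.7%) higher, and of the 72 that were at least 2-fold higher, 18 (25.0%) had been lower and 9 (12.5%) higher. Across all these genes the 2 steps had r = -0.03 and rho = -0.04, as a description over genes that are not independent.

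Whether these probes read the transduced copies of the 4 factors was not tested. Pou5f1 (Oct4) and Sox2 were not well above background at day 6 or day 8, Klf4 was at 4.43, 3.51, 3.65 and 3.63 on the 4 arrays (-0.03 ± 0.20), and Myc at 1.17, -1.48, -1.74 and -1.91 (-0.17 ± 0.15). The cardiac factors Gata4 (-0.17 ± 0.21), Mef2c (0.19 ± 0.21) and Tbx5 (0.23 ± 0.29) were within their errors, and the reference gene Gapdh, which has processed copies in the genome, was at 6.72 and 6.57 (-0.15 ± 0.07). Fas, the death receptor gene, was 0.11 ± 0.14 higher. Of cell type markers, the summed signal of 6 adipocyte markers rose from 6.74 to 7.83 (log2), with all 6 well above background at day 8 and 5 at day 6. Bright probes weigh most in such sums, and this one was carried mostly by Fabp4 (6.04 to 7.06). Fabp4 was well above background in the control too. The progenitor markers Ly6a (Sca-1), Thy1, Pdgfra and Eng were all well above background, with a log2 sum of 7.90 at day 6 and 8.15 at day 8, and Ly6a was 0.39 ± 0.20 higher. Sums of the 7 macrophage and leukocyte markers were 0.36 on both arrays, with Tyrobp and Laptm5 not well above background on either. Endothelial sums were 0.29 and 0.15, with Cdh5 not well above background on either. Mesothelial sums were 4.49 and 4.60, carried by Msln (3.32 to 3.77) and Krt19 (3.64 to 3.40), with Lrrn4 not well above background on either array. Cardiomyocyte sums were 2.72 and 2.01, carried by Tnnt2 (2.70 to 1.96), and Actc1 did not pass background on the 4 arrays.

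The dimmest probes were the most often called higher. In the dimmest 10% of kept probes the median difference was 0.42 and 21.9% were at least 2-fold higher, and in the brightest 10% the median was -0.08. Of the 371 genes at least 2-fold higher, 222 were well above background at day 8 only, and of the 122 lower genes 74 at day 6 only. Probes well above background numbered 31569 at day 6 and 33210 at day 8. Among probes well above background on both arrays the median ran from 0.11 to -0.08 over 10 groups of equal size ordered by signal, with the highest value in the second dimmest group. Of these dim rises, Pon1, a paraoxonase, was at least 5.89-fold higher at day 8, Lhx2 at least 4.66-fold, Apobec2 at least 4.49-fold and Dct at least 3.69-fold, and all but Lhx2 were not well above background on the 3 earlier arrays. Of the falls, the probes for the olfactory receptors Olfr541 (at least 17.7-fold lower) and Olfr137 (at least 7.82-fold) and for Gm904, Ssx9, Prm3 and Tsga10ip (at least 8.46-, 3.79-, 3.28- and 3.20-fold) were well above background on the day 6 array and on no other. For genes with several probes on both arrays, all probes agreed in sign for 22 of 23 genes at least 2-fold higher and for 4 of 4 genes at least 2-fold lower. All probes were themselves past 2-fold for 17 of the 23 and for 1 of the 4.

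**Figure D4:**
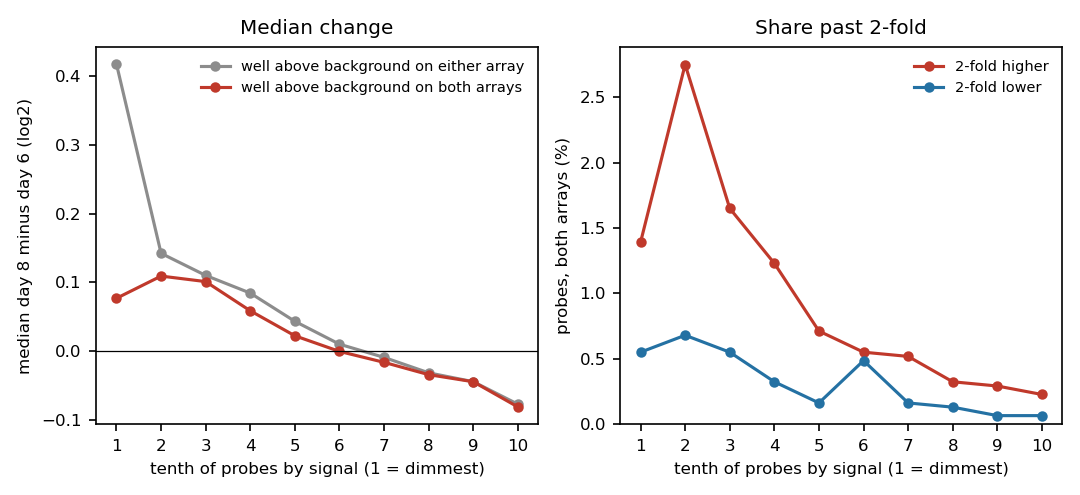
Left, median day 8 minus day 6 difference (log2) in each of 10 equal groups of probes ordered by signal, for probes well above background on either array (grey) and on both (red). Right, share of probes well above background on both arrays that were at least 2-fold higher (red) or lower (blue), in percent, where the dim groups hold more of both and the higher share exceeds the lower in all 10 groups.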

How the data were processed

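RNA of 4 samples was measured on 4 arrays of 1 slide (SurePrint G3 Mouse GE 8x60K) read in 1 scan. The authors deposited Feature Extraction files (version 10.7.3.1 in the file headers, 9.5.3 in the submitters' processing notes) that give each spot's background-subtracted Cy3 intensity with an error estimate and quality flags. A deposited GeneSpring table holds log2 values equal to the log2 processed intensity minus a constant per array in 100% of probes (within 0.05), and was used as an alternative.

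Of 62976 spots per array, 3671 controls and the outlier spots (105 at day 6, 106 at day 8) were left out, and 0 spots were saturated. The log2 intensity was averaged over a probe's spots and the array's 75th percentile (a signal of 406.4 at day 6 and 410.9 at day 8) subtracted. Probes well above background on either array were kept and averaged per gene. Gene names came from RefSeq (GRCm38.p6), 26856 by accession, 3756 by symbol and 625 by synonym, while 24444 had no match; probe positions are mm9. The number of arrays limits the precision: with 1 array per day no test was made, and the error is technical. Genes and lists were compared by counts past 2-fold and 1.5-fold and by medians.

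The 41 gene lists and the naming rule were chosen with earlier results of these data known. Named genes are the 12 largest rises and falls on both arrays, the 6 largest bounds each way, up to 4 list members in the direction of the list median and up to 2 in the other, the genes the study names, genes that turned after day 4 and cell type markers. Others were chosen after their values were seen. The CArG motif was added after the data were seen. Motifs were searched on both strands, and CCAAT and other letters may overlap. The code was tested on simulated data. Alternatives were other scalings, filters, folds and probe rules. Tools were R 4.3.3 with limma 3.58.1 (normexp, offset 50) and Python 3.11.15 with matplotlib 3.10.9, scipy 1.17.1, pandas 2.3.3 and numpy 2.4.6.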

Additional observations from a re-analysis of the deposited data

How the results depend on the processing

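No paired analysis was possible because day 6 and day 8 have a lone array apiece, and for the same reason none was left out. Genes at least 2-fold higher and lower, 371 and 122 as reported, numbered 52 and 18 after normexp with quantile normalization, 131 and 43 with probes well above background on both arrays only, 776 and 395 with no filter, 182 and 78 with dim values raised to a floor, and 282 and 185 with the array median as scale. At 1.5-fold they numbered 975 and 517, at 3-fold 121 and 44, and counted as probes 1127 and 353. The array median as scale shifted all genes by -0.13, to a median difference of -0.14 over all genes, and all 41 list medians moved by more than 0.09, the technical SD of a difference. Of those over 0.09 from 0, 5 turned sign, to -0.036 for fatty acid uptake, -0.016 for insulin response, -0.013 for xenobiotic metabolism, -0.041 for class I antigen presentation and -0.037 for the unfolded protein response. Lists nearer to 0 as reported changed sign as well. The medians of adipogenic factors, triglyceride synthesis, lipolysis, lipogenesis and secreted proteins were then -0.10 (0.04 as reported, so also turned), 0.30, 0.445, 0.16 and 0.17, those of S phase, G2 and M phase, histones and immediate early genes -0.40, -0.58, -0.41 and -0.43, and those of interferon-stimulated, complement and ribosome genes -0.11 (0.02 as reported), 0.13 and -0.26. Normexp gave 0.23 for triglyceride synthesis, 0.31 for lipolysis and -0.32 for G2 and M phase, and lipolysis was 0.38 with both arrays required and 0.36 with the floor. The ribosome median was nearer to 0 after quantile normalization (-0.05) and normexp (-0.06) than as reported (-0.13). The causes were not tested. Of 980 values of named genes under 5 alternatives, 887 moved by less than their technical error, and 59 of the 93 others were under normexp. With the authors' values 41 of 41 list medians moved by less than 0.09. Signal over background limits the dim probes, and every difference rests on 1 array per day.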

Other observations

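Genes outside the lists, named here after their values were seen, included receptors that were near background before day 6. Tshr, the thyrotropin receptor, was at -7.42, -5.50, -3.38 and -1.38 on the 4 arrays (2.00 ± 0.20), Acvr1c, the activin receptor ALK7, at -7.20, -6.74, -0.91 and 0.97 (1.88 ± 0.15), and the adrenergic receptor Adra2c at -6.35, -6.22, -4.84 and -2.96 (1.88 ± 0.32). Tshr, Acvr1c and Adra2c were not well above background in the control or at day 4. Ffar2, a receptor of short chain fatty acids, went from -1.54 to -0.47 (1.07 ± 0.21), Mrap, the accessory protein of the melanocortin receptor for ACTH, from 2.56 to 3.79 (1.23 ± 0.20), and the succinate receptor Sucnr1 from -2.02 to -0.53 (1.49 ± 0.21) after 1.71 in the control. Nrg4, a secreted growth factor of fat tissue, was 1.30 ± 0.16 higher, with its 3 probes between 0.99 and 1.89. Of genes for mast cell proteases, Mcpt1 went from -2.45 to -4.05 (-1.60 ± 0.26) and Mcpt4 from -2.57 to -3.59 (-1.02 ± 0.24), while Tpsb2 (-0.06 ± 0.21) and Cma2 (-0.03 ± 0.21) were within their errors and Mcpt9, well above background only at day 8, was at least 1.28-fold higher.

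Neighbouring genes moved together in a few places. On chromosome 13 the aldo-keto reductases Akr1c18 (0.70 ± 0.20), Akr1c13 (0.74 ± 0.21) and Akr1c19 (0.88 ± 0.21) were higher, and on chromosome 4 the phospholipase Pla2g2e rose from -1.99 to -0.26 (1.73 ± 0.15), beside Pla2g2f, which was at least 2.57-fold higher. The histone genes H1f5, H3c11 and H2ac22 (-0.62 ± 0.20) formed a run on chromosome 13 that was lower. Near copies in such runs may share signal.

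The median of all genes was -0.01. Medians of the other lists were 0.04 for glycolysis and hypoxia targets, 0.09 for class I antigen presentation, 0.05 for basement membrane and integrins, -0.08 for matrix proteases, 0.10 for the unfolded protein response, -0.01 for oxidative stress, 0.03 for the Wnt pathway, 0.05 for BMP and TGF-beta, 0.01 for mesenchymal progenitor markers and 0.06 for cardiac genes. The medians were -0.03 for pluripotency, 0.03 for macrophage, 0.05 for endothelial markers, 0.02 for nuclear receptors and -0.01 for lysosome and autophagy. Of 21 pluripotency genes, 4 were at least 1.5-fold higher and 1 lower, against 6.06% and 3.21% of all genes. Dppa5a, in the chromosome 9 run of the Gsta genes, rose from -4.91 to -3.35 (1.55 ± 0.33). Dnmt3l was higher (0.70 ± 0.21) and Klf2 lower (-0.80 ± 0.20). Mesothelial markers had a median of 0.15, or 0.29 with both arrays required and 0.01 with the array median as scale. Of 11 measured, 7 were above 0 and 4 below. The uroplakin genes Upk3b (1.21 ± 0.27) and Upk1b (0.88 ± 0.07) were higher, and the keratin gene Krt18 was lower (-0.49 ± 0.21). At day 8 Upk3b (-2.76) was still below its control level of 0.34. Among probes well above background on both arrays, 6170 named only by a genome region had a median of 0.09 and 21018 of named genes a median of -0.02, and the former were dimmer.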
